A study of Mus musculus with 6 samples.

Results

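The genes described here are 36 genes of the integrated stress response and of amino acid supply, out of 23793 rows in the deposited gene table. They were chosen by symbol: each is a row whose gene name equals 1 of 36 listed names. This rule uses no measured value, but the names were listed with earlier results of these data known. All 36 names were found, each in 1 row. They comprise 5 stress response regulators, 6 enzymes of serine and one-carbon metabolism, 3 enzymes of asparagine and proline synthesis, 2 membrane or secreted ATF4 targets and 20 cytosolic aminoacyl-tRNA synthetase genes.

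The mRNA libraries came from i660BM, a C57BL/6 mouse line of pro-B cells in which PU.1 can be switched on with doxycycline, kept in suspension with interleukin 7. The induced group was 3 samples given 70 ng/ml doxycycline for 48 h, and the non-induced group was 3 samples of the same line without the drug. These cells stand for an early step of B cell development, and PU.1, encoded by Spi1, is an ETS family transcription factor of the myeloid and B lineages. All samples come from 1 line, no group received doxycycline without the inducible factor, and the drug and PU.1 therefore cannot be told apart.

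The integrated stress response begins when a kinase, activated by amino acid shortage, unfolded protein, viral RNA or loss of haem, phosphorylates the initiation factor eIF2. General translation then slows while the mRNA of ATF4, a basic leucine zipper transcription factor, is translated more. ATF4, often with a C/EBP family partner, raises genes for amino acid uptake and synthesis, for one-carbon metabolism and for tRNA charging. Aminoacyl-tRNA synthetases join each amino acid to its tRNA, and lymphocytes that divide need them to make protein.

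The deposited values are 1 FPKM value per gene and group, that is, fragments per kilobase of transcript scaled to the depth of the libraries, so no value per library and no standard deviation is given. In the text, a gene rose or fell, and is called, if it has a deposited test and a deposited q-value under 0.05. An implied standard error is the deposited log2 change divided by the deposited test statistic, and an interval is the 95% normal interval that this error gives. Whether the 3 samples of a group were separate cultures is not stated in the labels, and the spread behind the deposited p-values may be technical. The steps between the lowest FPKM values put the depth very roughly at 123000000 fragments for the induced group and 119000000 for the non-induced group.

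The group labels and the cell type were checked first. Spi1 had 246 FPKM in induced and 35.96 FPKM in non-induced cells, a log2 change of 2.78 in the authors' deposited table. Of 11 pro-B markers, 9 were tested, with levels of at least 83.4 FPKM in induced cells (Ebf1) and 43.5 FPKM in non-induced cells (Il7r). These markers moved with the groups: 6 of 9 rose (66.7%, against 19.0% of all tested rows) and 0 fell (against 16.1%). Their median log2 change was 0.42, and the largest rises were those of Il7r (1.71), Igll1 (1.01) and Vpreb1 (0.81) in the authors' deposited table. Kit was listed at 0 in both groups and Ptprc near 0, and both were untested, so these may be failed estimates. Of 10 macrophage and granulocyte markers 8 were in the table, with a summed level of 22.6 FPKM in induced and 2.24 FPKM in non-induced cells, and the 2 that were tested, Lyz2 and Cd68, rose. Elane and Csf3r of that list, Cd3e and Cd4 of the T cell list and Col1a1 and Col3a1 of the stromal list were listed at 0 in both groups. The macrophage genes Csf1r, Itgam and Fcgr1 were untested, with 0.192, 0.151 and 0.187 FPKM in induced cells. In non-induced cells these 3 had 0, 0.0133 and 0.00641 FPKM. Mpo, also untested, had 0 FPKM in induced and 0.00358 FPKM in non-induced cells. In each of the T cell, erythroid and stromal lists 1 marker was tested. Lck, a kinase gene of the T cell list, fell to 46.1 FPKM in induced cells, against 65.95 FPKM in non-induced cells. Hbb-bt of the erythroid list had 0.375 FPKM in induced and 1.05 FPKM in non-induced cells and fell, and Acta2 of the stromal list had 0.494 FPKM in induced and 0.259 FPKM in non-induced cells and rose. The summed levels were 46.2 FPKM in induced and 66.0 FPKM in non-induced cells for 5 T cell markers, and 0.846 FPKM in induced and 1.56 FPKM in non-induced cells for 5 erythroid markers. The part of these marker changes in the changes below was not tested, and in such bulk samples a change in the mix of cells cannot be told apart from a change of RNA per cell.

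Some of these genes share a DNA element through which ATF4 and C/EBP proteins are known to act, the C/EBP-ATF response element. Its core was searched as TGATGNAA on both strands in RefSeq promoter windows (build GRCm38.p6, 250 bases before to 50 after the gene start). Of the 36 genes, 29 had a window, and 10 of these (34.5%) held the core, against 4.51% of the 27025 genes with a window. Several of the 36 genes are textbook ATF4 targets, so this share describes the choice of genes and is not a result of the experiment. The stretches of up to 60 bases around each match are shown because they carry the element that the changes below are set against. Each reads 5′ to 3′ on the strand of its gene, and capitals mark the core, TGATGNAA or its reverse complement.
Asns, chr6:7693199-7693258, minus strand: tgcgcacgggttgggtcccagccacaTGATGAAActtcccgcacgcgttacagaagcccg
Chac1, chr2:119351023-119351082, plus strand: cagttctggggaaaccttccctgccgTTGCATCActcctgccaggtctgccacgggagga
Trib3, chr2:152344013-152344072, minus strand: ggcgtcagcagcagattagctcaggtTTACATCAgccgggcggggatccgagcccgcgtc
Pycr1, chr11:120643818-120643877, minus strand: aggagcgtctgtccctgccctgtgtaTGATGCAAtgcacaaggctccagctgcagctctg
Vldlr, chr19:27216794-27216853, plus strand: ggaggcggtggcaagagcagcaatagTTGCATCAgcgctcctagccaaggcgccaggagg
Aars, upstream match, chr8:111033704-111033763, plus strand: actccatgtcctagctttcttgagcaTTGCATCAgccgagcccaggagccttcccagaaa
Aars, downstream match, chr8:111033825-111033884, plus strand: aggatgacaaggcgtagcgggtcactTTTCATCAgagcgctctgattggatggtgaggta
Gars, chr6:55037945-55038004, plus strand: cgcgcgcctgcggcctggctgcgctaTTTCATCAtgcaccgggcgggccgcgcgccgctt
Iars, chr13:49682111-49682170, plus strand: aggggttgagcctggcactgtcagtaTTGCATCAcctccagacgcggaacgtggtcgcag
Tars, chr15:11399640-11399699, minus strand: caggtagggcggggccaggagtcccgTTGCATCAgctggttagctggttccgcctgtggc
Yars, chr4:129189880-129189939, plus strand: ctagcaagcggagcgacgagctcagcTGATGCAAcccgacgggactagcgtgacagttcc

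In 7 of the 10 genes the core was the exact letters TGATGCAA or their reverse complement, a form that 1.03% of all genes with a window held. The exceptions were Asns, Trib3 and Gars. A second motif, the E-box CACGTG, to which MYC family proteins and relatives bind, was found in 5 of 29 genes (17.2%), namely Aars, Aldh18a1, Farsb, Iars and Tars, against 8.09% of all genes. The ETS site letters GAGGAAGT, of the kind PU.1 binds, were in 0 of 29 windows and in 3.69% of all genes with a window, which says only that these letters are not in these windows. The motifs do not overlap one another in these windows.

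The question of the study was which genes change when PU.1 is induced in pro-B cells. Few of the genes of amino acid supply and tRNA charging did, and none by 1.5-fold. The authors had tested 34 of the 36, all but Vldlr and Stc2. Of these 34, 7 were called (20.6%), against 35.1% of all 10657 tested rows (the background for either direction). Mthfd2, Chac1 and Asns rose, 3 of 34 (8.82%), against a background of 19.0% called higher. Farsa, Farsb, Hars and Eprs fell, 4 of 34 (11.8%), against a background of 16.1% called lower. Most of the genes are abundant, and of the 28 with a mean of at least 50 FPKM 6 were called (21.4%), 2 higher and 4 lower. Among all 2098 tested rows at that level 33.1% were called, 17.4% higher and 15.6% lower. The level of 50 FPKM was chosen after the values were seen, and no test of these shares against the background was made.

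The changes were small. Of all 10657 tested rows 1249 differed by at least 1.5-fold, and of the 34 genes 0 did. Large changes were rarer among abundant genes: of the 2098 tested rows with a mean of at least 50 FPKM, 106 differed by that much. The median absolute log2 change was 0.11 for the 34, 0.14 for tested rows of at least 50 FPKM and 0.17 for all tested rows. The median log2 change of the 34 was -0.02 and that of all tested rows -0.01. The range ran from -0.24 for Farsa to 0.40 for Atf5, and the sum of the FPKM values was 3317 in induced and 3338 in non-induced cells. Of the 34 intervals, 31 lay within 1.5-fold in both directions. The exceptions were Atf5 and Ddit3, whose intervals were wide, and Mthfd2.

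**Figure D1:**
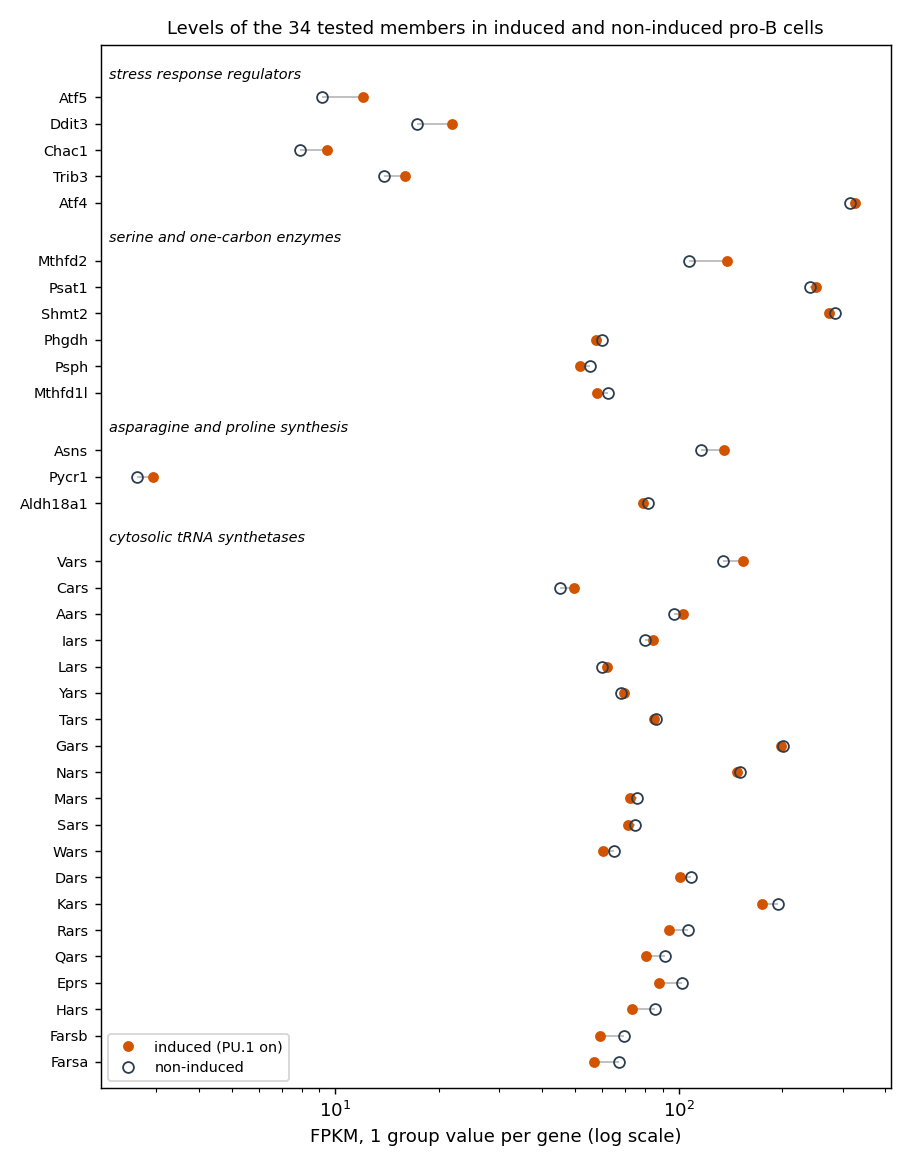
FPKM of the 34 tested genes in induced (filled) and non-induced (open) cells, on a log axis, by role and, within a role, by log2 change. Filled and open circles lie close together for every gene; Atf4 is the most abundant at 325 and 315 FPKM and Pycr1 the least at 2.95 and 2.65 FPKM.

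Among the stress response regulators all 5 values were higher in induced cells, as were 5175 of all 10657 tested rows. Of the 5, 1 was called, Chac1 (20%, against a background of 19.0% called higher). Atf4 itself was the most abundant of the 36 genes, at 325 FPKM in induced and 315 FPKM in non-induced cells. Its log2 change in the authors' deposited table was 0.05 (interval -0.25 to 0.34, q = 0.743). ATF4 output is set largely by translation of its mRNA, which these values do not measure. Chac1, which encodes a glutathione-degrading enzyme and is a target of the pathway, stood at 9.49 FPKM in induced and 7.90 FPKM in non-induced cells. For Chac1 the authors' deposited table gave a log2 change of 0.26 (implied standard error 0.15, q = 0.0249). The gene is protein-coding and spans positions 119351229 to 119354381 of chromosome 2 (mm10, plus strand).

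The other regulators were far less abundant than Atf4, though above Chac1, and were not called. Ddit3, which encodes the bZIP factor CHOP, had 21.9 FPKM in induced and 17.2 FPKM in non-induced cells (log2 change 0.35, q = 0.457 in the authors' deposited table). Atf5, a relative of Atf4 whose mRNA is likewise under translational control, had 12.0 FPKM in induced and 9.15 FPKM in non-induced cells (log2 change 0.40, q = 0.396 in the authors' deposited table). These differences were larger than that of Chac1, with implied standard errors of 0.50 for Ddit3 and 0.51 for Atf5, the widest of the 34. Ddit3 shares its locus in the table with Mars, and Atf5 with Tbc1d17 and a row of 3 joined symbols, so their fragments may have been split among overlapping genes. Trib3, a pseudokinase that binds ATF4 and restrains it, had 16.0 FPKM in induced and 13.9 FPKM in non-induced cells, with q = 0.0635 in the authors' deposited table.

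Serine and one-carbon metabolism held the clearest single change, that of Mthfd2, while its other enzymes were not called. Mthfd2 is the mitochondrial dehydrogenase and cyclohydrolase that oxidises the one-carbon unit taken from serine. It had 138 FPKM in induced and 107 FPKM in non-induced cells, 29.0% more. For Mthfd2 the authors' deposited table gave a log2 change of 0.37 (implied standard error 0.13) and q = 0.000287. That is the smallest q-value that occurs there, and other rows, such as those of Cth, Gldc and Ddit4, share it. Mthfd2, a protein-coding gene, spans positions 83305691 to 83325908 of chromosome 6 (mm10, minus strand). Its promoter window, shown because it had the largest called rise of the 34, held none of the motifs searched. The window lies inside the gene span given above, and the 5′ end of that span was not searched.
Mthfd2 promoter, chr6:83317555-83317854, minus strand: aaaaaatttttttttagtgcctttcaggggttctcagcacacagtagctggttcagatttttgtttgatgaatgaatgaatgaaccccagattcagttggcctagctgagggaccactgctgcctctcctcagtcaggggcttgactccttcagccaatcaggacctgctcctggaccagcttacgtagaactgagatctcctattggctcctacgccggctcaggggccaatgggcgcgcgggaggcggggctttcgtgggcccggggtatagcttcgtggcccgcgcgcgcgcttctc

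The enzymes on either side of Mthfd2 did not pass the test. Shmt2, which splits serine into glycine and a one-carbon unit in mitochondria, had 275 FPKM in induced and 286 FPKM in non-induced cells (q = 0.670 in the authors' deposited table). Mthfd1l, which releases the unit as formate, had 57.9 FPKM in induced and 62.5 FPKM in non-induced cells (q = 0.333 in the authors' deposited table). The intervals of these log2 changes ran from -0.33 to 0.22 for Shmt2 and from -0.39 to 0.18 for Mthfd1l. The row of Shmt2 shares its locus with Ndufa4l2.

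The 3 enzymes that make serine from a glycolytic intermediate were close to equal in both groups. Phgdh, the entry enzyme, had 57.4 FPKM in induced and 60.0 FPKM in non-induced cells. Psat1, the aminotransferase that follows, had 251 FPKM in induced and 241 FPKM in non-induced cells. Psph, the phosphatase that ends the route, had 51.6 FPKM in induced and 55.2 FPKM in non-induced cells. The log2 changes in the authors' deposited table were -0.06 for Phgdh, 0.06 for Psat1 and -0.10 for Psph, each with an implied standard error of 0.13 or 0.14.

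The asparagine enzyme gene rose and the proline enzyme genes did not pass the test. Asns, the asparagine synthetase and a classical target of ATF4, had 136 FPKM in induced and 116 FPKM in non-induced cells, 16.8% more. For Asns the authors' deposited table gave a log2 change of 0.22 (implied standard error 0.13, q = 0.0214). The protein-coding Asns gene spans positions 7675169 to 7693254 of the same chromosome 6 (mm10, minus strand). Aldh18a1, which makes the proline precursor from glutamate, had 79.0 FPKM in induced and 81.2 FPKM in non-induced cells, and Pycr1, the mitochondrial reductase that ends the route, had 2.95 FPKM in induced and 2.65 FPKM in non-induced cells. The q-values in the authors' deposited table were 0.763 for Aldh18a1 and 0.253 for Pycr1.

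The lipoprotein receptor gene Vldlr and the secreted glycoprotein gene Stc2, both known as ATF4 targets in other cells, were listed at 0 in both groups and were not tested.

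**Figure D2:**
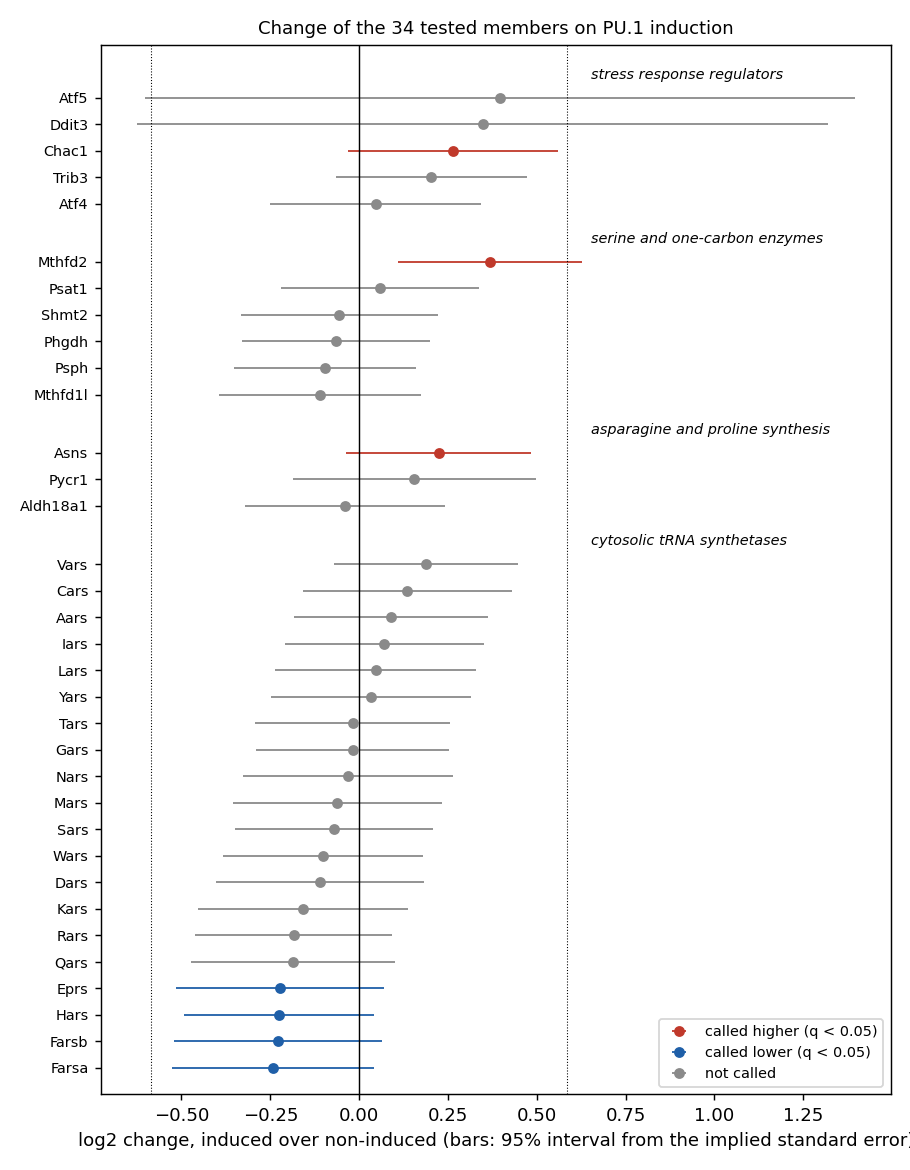
Deposited log2 change (induced over non-induced) of the 34 tested genes, with bars of the 95% interval from the implied standard error and dotted lines at 1.5-fold. Mthfd2, at 0.37, is the only gene whose bar does not reach 0; the bars of the other 6 called genes cross it, because the deposited p-values are smaller than the deposited statistic alone would give.

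Of the 20 synthetase genes, 4 fell (20%, near the background of 16.1%) and 0 rose (against 19.0%). Together these 4 calls are a smaller share than the 35.1% of all tested rows called in either direction. The median log2 change was -0.07, with 14 values below 0 and 6 above. Values below 0 were held by 5479 of all 10657 tested rows, and by 1171 of the 2098 with a mean of at least 50 FPKM. Summed over the 20 genes the level was 1884 FPKM in induced and 1964 FPKM in non-induced cells, a difference of -4.09%. Levels of single genes ran from 49.7 FPKM (Cars) to 199 FPKM (Gars) in induced cells, and from 45.2 FPKM (Cars) to 201 FPKM (Gars) in non-induced cells. At an unadjusted p under 0.05 in the authors' deposited table, 7 of the 20 passed (35.0%, against 42.4% of all tested rows). Vars was higher and the other 6 lower (30.0%, against 20.4% of all tested rows lower at that p).

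Both subunits of the phenylalanyl-tRNA synthetase fell by a like amount. This enzyme is a tetramer of alpha chains, encoded by Farsa, and beta chains, encoded by Farsb. Farsa had 56.6 FPKM in induced and 66.9 FPKM in non-induced cells, and Farsb had 59.1 FPKM in induced and 69.3 FPKM in non-induced cells. In the authors' deposited table Farsa fell by 0.24 (implied standard error 0.14, q = 0.0150) and Farsb fell by 0.23 (implied standard error 0.15, q = 0.0210) on the log2 scale. Farsa spans positions 84856989 to 84869257 of chromosome 8 (plus strand) and Farsb 78417975 to 78488897 of chromosome 1 (minus strand; mm10, both protein-coding). The row of Farsa shares its locus with the microRNA row Mir7069 and that of Farsb with Sgpp2. The promoter windows of the pair are shown because these genes moved together. The capitals in that of Farsb mark the E-box, and that of Farsa held none of the motifs.
Farsa promoter, chr8:84856736-84857035, plus strand: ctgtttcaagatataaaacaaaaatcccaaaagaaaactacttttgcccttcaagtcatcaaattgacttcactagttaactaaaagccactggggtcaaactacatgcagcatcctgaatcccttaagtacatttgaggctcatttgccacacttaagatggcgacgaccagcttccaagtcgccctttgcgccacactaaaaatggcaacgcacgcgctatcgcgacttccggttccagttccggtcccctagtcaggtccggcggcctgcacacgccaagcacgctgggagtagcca
Farsb promoter, chr1:78488848-78489147, minus strand: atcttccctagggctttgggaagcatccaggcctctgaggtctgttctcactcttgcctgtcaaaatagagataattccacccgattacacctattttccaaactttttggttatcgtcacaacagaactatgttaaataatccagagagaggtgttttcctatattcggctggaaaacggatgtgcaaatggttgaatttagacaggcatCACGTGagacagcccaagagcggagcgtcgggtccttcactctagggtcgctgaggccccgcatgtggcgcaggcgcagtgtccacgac

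Hars and Eprs were the other synthetase genes that fell. Hars, which charges histidine tRNA, had 73.1 FPKM in induced and 85.5 FPKM in non-induced cells, and fell by 0.23 on the log2 scale in the authors' deposited table (q = 0.0208). Eprs, whose protein charges both glutamate and proline tRNAs, had 87.7 FPKM in induced and 102 FPKM in non-induced cells, and fell by 0.22 on the log2 scale in the authors' deposited table (q = 0.0241). Hars spans positions 36766528 to 36783205 of chromosome 18 (minus strand) and Eprs 185363044 to 185428360 of chromosome 1 (plus strand; mm10, both protein-coding). The 4 calls were alike in size, with changes from -15.4% (Farsa) to -14.3% (Eprs) in FPKM.

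Just outside the threshold lay Qars, Rars and Vars. Qars, for glutamine, had 80.4 FPKM in induced and 91.5 FPKM in non-induced cells (q = 0.0637 in the authors' deposited table). Rars, for arginine, had 93.9 FPKM in induced and 107 FPKM in non-induced cells (q = 0.0671 in the authors' deposited table). Vars, for valine, had the highest log2 change of the 20, 0.19, at 154 FPKM in induced and 135 FPKM in non-induced cells (q = 0.0665 in the authors' deposited table). Kars, for lysine, followed with 175 FPKM in induced and 195 FPKM in non-induced cells (q = 0.127 in the authors' deposited table). Of these 4 genes, Vars alone had the higher value in induced cells.

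The other 12 synthetase genes had log2 changes from -0.11 (Dars) to 0.14 (Cars). Cars, Aars, Iars, Lars and Yars, for cysteine, alanine, isoleucine, leucine and tyrosine, had values above 0. Tars, Gars, Nars, Mars, Sars, Wars and Dars, for threonine, glycine, asparagine, methionine, serine, tryptophan and aspartate, had values below 0. Gars was nearly equal, at 198.7 FPKM in induced and 201 FPKM in non-induced cells. All 12 had q-values of 0.211 or more in the authors' deposited table. Their intervals lay within 1.5-fold in both directions.

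**Figure D3:**
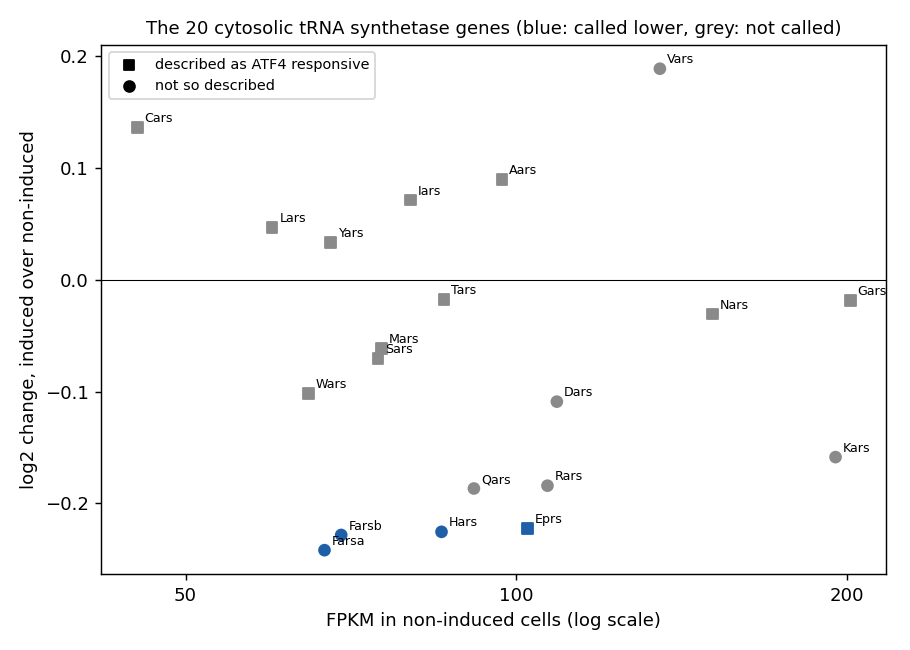
Deposited log2 change (induced over non-induced) of the 20 cytosolic synthetase genes against their FPKM in non-induced cells (log axis); squares are genes commonly described as ATF4 responsive, circles the others, and blue marks the 4 that fell. Of the 12 squares 1 is blue and of the 8 circles 3 are, and Vars at 0.19 is the only circle above 0.

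The synthetase genes were split by what is generally known of them. Of 12 commonly described as ATF4 responsive (Aars, Cars, Eprs, Gars, Iars, Lars, Mars, Nars, Sars, Tars, Wars, Yars), 1 fell (8.33%, against the background of 16.1% called lower) and 0 rose, with a median log2 change of -0.02. Of the 8 not so described, 3 fell (37.5%) and 0 rose, with a median of -0.19. The summed level of the 12 was 1091 FPKM in induced and 1105 FPKM in non-induced cells, and that of the 8 was 793 FPKM in induced and 859 FPKM in non-induced cells. Of the 8 enzymes of the multi-synthetase complex, a cytosolic assembly, 1 fell, Eprs (12.5%), and 0 rose (median -0.13). By structural class, the class I genes had 1 of 10 lower (10%, median -0.01) and the class II genes 3 of 10 lower (30%, median -0.09), with Eprs, which holds a domain of each class, counted in class I. With normal p-values from the deposited statistic 0 of the 20 were called, against 15.1% of all tested rows (8.97% higher and 6.16% lower). No test of the difference between these subsets was made.

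The calls were also set beside the promoter element shown above. Of the 10 genes with the core 9 were tested, and 2 of them rose (Asns and Chac1; 22.2%, near the background of 19.0%) and 0 fell, with log2 changes from -0.02 (Gars) to 0.26 (Chac1) and a median of 0.09. Of the 19 genes with a window but no core 18 were tested, and 1 rose (Mthfd2; 5.56%) and 3 fell (Eprs, Farsa and Farsb; 16.7%, near the background of 16.1%), with a median of -0.07. This is a description of a few genes, for which no test was made, and a match is not a bound site.

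Other genes of the same pathways had some larger changes, in both directions. Of 22 further ATF4 pathway genes, listed from general knowledge, 16 were tested, and 6 rose (37.5%, against the background of 19.0%) and 2 fell (12.5%, against 16.1%). With normal p-values from the deposited statistic 1 of them rose (6.25%, against 8.97% of all tested rows) and 1 fell (6.25%, against 6.16%). Cth, which makes cysteine from cystathionine, had 11.03 FPKM in induced and 6.15 FPKM in non-induced cells, the largest rise of that list (log2 change 0.84, q = 0.000287 in the authors' deposited table). Eif4ebp1, an inhibitor of cap-dependent translation, had 140.1 FPKM in induced and 115 FPKM in non-induced cells and rose as well (log2 change 0.29 in the authors' deposited table). The others that rose were Cebpg, Ppp1r15a, Slc7a5 and Gpt2. Ddit4, an inhibitor of mTORC1 signalling, fell to 27.4 FPKM in induced cells, against 37.9 FPKM in non-induced cells (log2 change -0.47 in the authors' deposited table). Atf3, a bZIP factor induced by stress, fell to 7.97 FPKM in induced cells, against 9.40 FPKM in non-induced cells (log2 change -0.24 in the authors' deposited table). The median log2 change of the 16 was -0.01.

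Upstream of ATF4, 15 genes for eIF2, its exchange factor, its kinases and their partners were all tested, and 2 rose (13.3%, against the background of 19.0%) and 4 fell (26.7%, against 16.1%). The 6 calls are 40% of the list, near the background of 35.1%. By normal p-values 1 rose (6.67%, against 8.97% of all tested rows) and 0 fell (against 6.16%). Eif2ak4, which encodes the amino acid sensor kinase GCN2, had 15.7 FPKM in induced and 10.5 FPKM in non-induced cells (log2 change 0.58 in the authors' deposited table, q = 0.000287). Its activator gene Gcn1l1 had 22.4 FPKM in induced and 25.7 FPKM in non-induced cells and fell, at q = 0.0497 in the authors' deposited table. Eif2b3, an exchange factor subunit, fell to 23.3 FPKM in induced cells, against 30.5 FPKM in non-induced cells. Eif2s3x and Eif2b1 also fell, and Eif2b2 rose (log2 changes -0.22, -0.20 and 0.20 in the authors' deposited table). The kinase genes Eif2ak1, Eif2ak2 and Eif2ak3 were not called.

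The mitochondrial synthetase genes had 6 of 17 called lower (35.3%, against the background of 16.1%) and 0 called higher, with a median log2 change of -0.18. In the authors' deposited table an unadjusted p under 0.05 was reached by 10 of the 17, all of them with lower values in induced cells (58.8%, against 20.4% of all tested rows lower at that p). With normal p-values 1 of the 17 was called lower (5.88%), no more than the background of 6.16% called lower by that rule. Mars2, the mitochondrial methionine enzyme, fell to 15.7 FPKM in induced cells, against 20.6 FPKM in non-induced cells (log2 change -0.39 in the authors' deposited table), and Nars2, for asparagine, to 5.69 FPKM in induced cells, against 7.20 FPKM in non-induced cells (-0.34 there). Yars2, Iars2 and Aars2 were also called lower. Around the cytosolic enzymes, Eef1e1, a scaffold of the multi-synthetase complex, fell to 73.3 FPKM in induced cells, against 85.4 FPKM in non-induced cells. The scaffolds Aimp1 and Aimp2 were not called. In the authors' deposited table the log2 changes were -0.22 for Eef1e1, -0.24 for Aimp2 and -0.07 for Aimp1. The implied standard error was 0.26 for Aimp2, whose row shares its locus, and 0.13 for Eef1e1. Tarsl2, a relative of the threonine enzyme, fell too, at 0.684 FPKM in induced and 1.01 FPKM in non-induced cells.

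Of 19 folate and glycine genes outside the 36, 16 were tested, and 5 of these were called lower (31.25%, against the background of 16.1%). With normal p-values 1 was called lower (6.25%, against 6.16%). Gldc, the glycine-decarboxylating subunit of the glycine cleavage system, had 91.7 FPKM in induced and 169 FPKM in non-induced cells (in the authors' deposited table, log2 change -0.88 and implied standard error 0.14). Gcsh, the carrier protein of the same system, also fell, to 68.8 FPKM in induced cells, against 83.6 FPKM in non-induced cells. Sfxn1, known from human cells as a mitochondrial serine carrier, had 88.2 FPKM in induced and 109 FPKM in non-induced cells and fell (log2 change -0.31 in the authors' deposited table). The folate carrier gene Slc25a32 and the purine enzyme gene Gart fell too.

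Of 11 other amino acid synthesis genes, all tested, 2 rose (18.2%, near the background of 19.0%) and 1 fell (9.09%, against 16.1%). With normal p-values 1 rose (9.09%, near the 8.97% of all tested rows) and 0 fell (against 6.16%). Prodh, which breaks proline down, had 5.44 FPKM in induced and 0.759 FPKM in non-induced cells, a log2 change of 2.84 in the authors' deposited table, larger than that of any of the 34. Oat, the ornithine aminotransferase, rose to 98.6 FPKM in induced cells, against 81.8 FPKM in non-induced cells, and Pycrl, a relative of Pycr1, fell to 37.1 FPKM in induced cells, against 42.9 FPKM in non-induced cells.

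**Figure D4:**
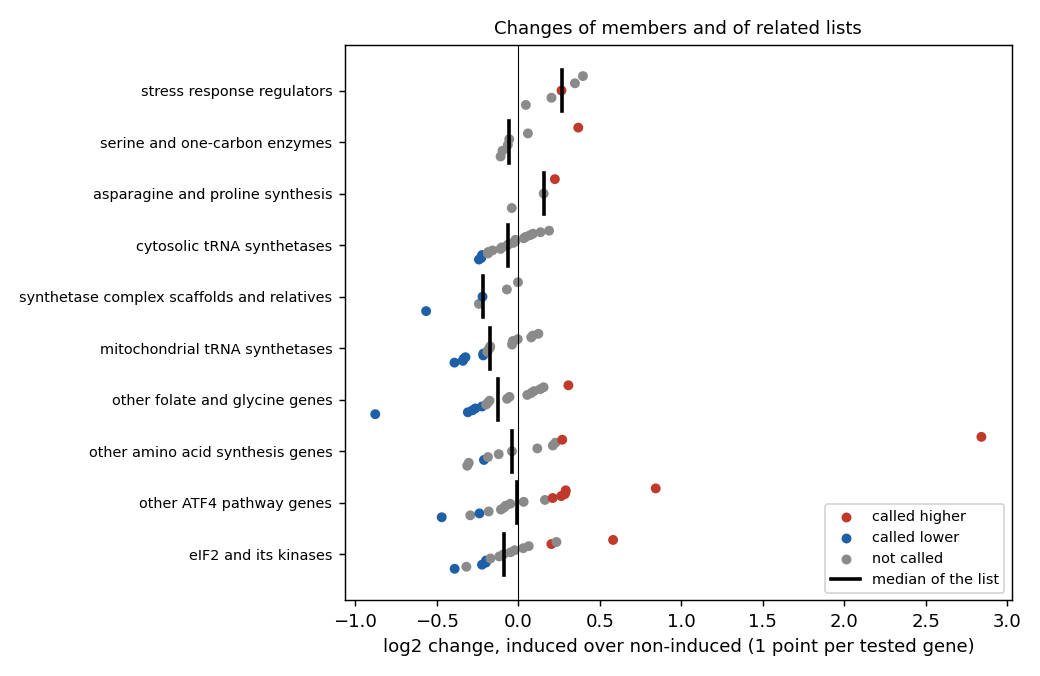
Deposited log2 change (induced over non-induced) of each tested gene, by list, with the list's median as a bar; points are spread vertically in order of change so that they can be seen. The 34 tested members (upper 4 lists) lie between -0.24 and 0.40, while Prodh at 2.84, Gldc at -0.88 and Cth at 0.84 lie farther out in the related lists.

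The calls rest on the authors' p-values. With p-values taken instead from the deposited statistic as a normal deviate, 15.1% of all tested rows and 1 of the 34 genes, Mthfd2, were called (Benjamini-Hochberg q = 0.0387).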

How the data were processed

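Per the labels' protocols, RNA was taken with a Qiagen column kit and made into stranded mRNA libraries. The submitters' processing notes name Trim Galore 0.2.8.1, TopHat2 2.0.9, Cufflinks, Cuffdiff 2.1.1 and mm10. Gene annotation and strand setting were not given in the sources used here. For each gene and group the authors deposited 1 FPKM value, together with Cuffdiff's p-value, q-value, log2 fold change and statistic, the last being a score without fixed limits. The deposited q-values differed by at most 5.15e-07 from Benjamini-Hochberg values recomputed over the 10657 tested rows; 13135 rows were untested. A value of 0 can be a failed estimate. Values near the lowest steps were whole fragments (within 0.15) for 65.6% of induced and 70.1% of non-induced values, so depth is approximate. The main calls are the authors'; the only other test per gene is an alternative that takes the deposited statistic as a normal deviate, with Benjamini-Hochberg adjustment over all tested rows. The 36 genes and all lists were chosen with earlier results of these data known. Every one of the 36 is named; of each other list the 2 largest called rises and falls are named with values, and further called genes were named after their values were seen. Some genes of these lists are not reported here. Promoters are from RefSeq and coordinates of genes from GENCODE M21. The normal-deviate step was tested on simulated data. Alternatives were another p-value, a q of 0.01, FPKM minimums, 1.5-fold, unshared loci and pseudocounts of 0.1 and 1. Python 3.11.15, pandas 2.3.3 and scipy 1.17.1 were used.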

Additional observations from a re-analysis of the deposited data

How the results depend on the processing

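For the 36 genes, 3 were called higher and 4 lower. With normal p-values these counts were 1 and 0, at q under 0.01 they were 1 and 0, and at 1.5-fold 0 and 0. Over rows that share no locus they were 3 and 2, since Farsa and Farsb share theirs. The synthetase count of 4 lower was 0 with normal p-values, 0 at q under 0.01, 0 at 1.5-fold and 2 over rows that share no locus, and the single riser among serine and one-carbon enzymes was lost (0) at 1.5-fold alone. Counts at means of at least 1, 5 or 50 FPKM (the last chosen after seeing the data), all medians of these 3 groups, and Spi1 stayed close to their values. Asns, Chac1, Eprs, Farsa, Farsb and Hars lost their calls with normal p-values and at q under 0.01, and Mthfd2 did not. Among all 10657 tested rows 956 were higher and 656 lower with normal p-values, in place of 2023 and 1721. Those counts were 1573 and 1186 at q under 0.01, and 676 and 410 at 1.5-fold. Over the 8413 tested rows that share no locus they were 1714 and 1488. No paired analysis was possible because the table holds 1 value per group and none per library; for the same reason no replicate could be left out.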
